A study of Homo sapiens with 9 samples.

Results

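The TNF receptor superfamily genes described here are 10 of the 27800 gene symbols in a table of transcript levels from Huh7 cells. They are TNFRSF1A, TNFRSF10A, TNFRSF10B, TNFRSF10D, TNFRSF11A, TNFRSF11B, TNFRSF12A, TNFRSF14, TNFRSF19 and TNFRSF21, and all 10 symbols were found. The genes were picked by name with their values in these libraries already known. Their levels, fold changes and adjusted p-values are therefore a description of these libraries and not independent evidence. Huh7 is an established human hepatocellular carcinoma line, so every value comes from 1 line, and each compound was given at 1 dose and 1 time. RNA was sequenced in 9 libraries. Of these, 3 came from cells given vehicle, 3 from cells given 5 uM FIDAS-5 for 48 h and 3 from cells given 0.5 uM JQ1 for 48 h. FIDAS-5 inhibits MAT2A, an enzyme that makes the methyl donor S-adenosylmethionine, and JQ1 displaces BET bromodomain proteins from acetylated histones. All cells were grown in DMEM with 10% FBS. The labels name neither the vehicle nor its time. They leave unsaid whether replicate libraries are separate cultures, and p-values here reflect library-to-library spread that could be purely technical.

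Receptors of this superfamily sit in the cell membrane and bind trimeric ligands of the TNF superfamily. One class carries a death domain inside the cell, which can recruit adaptors such as FADD and TRADD and start either caspase 8 activation or NF-kappaB signalling. Another class has no death domain and binds TRAF adaptors, which feed into the NF-kappaB and JNK pathways. Decoy receptors bind a ligand without passing on a full signal. In liver cells the family is known for TNF signalling during inflammation and regeneration and for cell killing by TRAIL, the product of TNFSF10.

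Levels are given in TPM, transcripts per 1000000, which are scaled by transcript length and so can be set side by side between genes. Symbols matched to protein-coding genes held only 27.6% (JQ1 replicate 3) to 34.0% (JQ1 replicate 1) of the TPM of a library. The level of a member in TPM, and its place against the 1 TPM filter, therefore depend also on the share of all other symbols. Read counts cannot be recovered from TPM, and so depth and counting error per library are unknown. A fold change is a difference of log2(TPM + 1), which understates the change of genes near or below 1 TPM. A gene was tested when it reached 1 TPM in at least 3 libraries, as 13573 genes did, and was called at a limma adjusted p under 0.05 over all of them. Hepatocyte and hepatoma markers were high, with all 11 of them tested. Their sum was 5422 to 6355 TPM with vehicle, 4376 to 6501 TPM with FIDAS-5 and 11240 to 16250 TPM with JQ1, and 8 of the 11 rose and 2 fell with JQ1. Of 8 leukocyte markers 4 reached the filter. Their sum was 115 to 141 TPM with vehicle, 253 to 312 TPM with FIDAS-5 and 19.3 to 28.2 TPM with JQ1. Of this LYZ, the lysozyme gene, gave 102 to 125 TPM, 227 to 283 TPM and 9.89 to 14.9 TPM, while PTPRC, the pan-leukocyte marker, stayed at or under 0.918 TPM in every library. Fibroblast and endothelial markers summed to 8.51 to 11.2 TPM with vehicle, 16.9 to 18.5 TPM with FIDAS-5 and 2.87 to 3.42 TPM with JQ1. PECAM1, an adhesion molecule of endothelium, gave most of this sum with vehicle and FIDAS-5, and its mean was 8.69 TPM with vehicle, 16.1 TPM with FIDAS-5 (adjusted p = 0.00659) and 1.44 TPM with JQ1 (adjusted p = 4.58e-05). VWF, another endothelial marker, was at or under 0.00944 TPM. COL1A2, a fibroblast marker, went the other way with JQ1 and was called higher. It was at 1.12, 0.543 and 0.499 TPM with vehicle and at 1.58, 1.335 and 1.341 TPM with JQ1. COL1A2 passed the filter only with its JQ1 libraries, so that rise was built into its test. Cholangiocyte markers summed to 26.3 to 32.3 TPM with vehicle, 24.4 to 39.6 TPM with FIDAS-5 and 31.9 to 48.6 TPM with JQ1. Of the 5, KRT7 was listed at 0 in all 9 libraries, KRT19 rose with JQ1 (adjusted p = 0.00586), MUC1 rose with FIDAS-5 (adjusted p = 0.00406) and fell with JQ1 (adjusted p = 0.0415), and SOX9 and EPCAM were not called against vehicle. MUC1 passed the filter only through its FIDAS-5 libraries, so a rise with FIDAS-5 was built into its test. Its vehicle and JQ1 values were all under 1 TPM. The part of the cell type markers in the results was not tested. Libraries also departed from their group mean along transcript GC content. The Spearman correlation of the departure with GC content across genes was 0.555 and 0.641 in replicate 3 of FIDAS-5 and JQ1, -0.506 and -0.654 in their replicate 1, 0.385 in vehicle replicate 1, and -0.139 to -0.341 in the other 4 libraries. These are descriptions over genes, which are not replicates.

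With FIDAS-5, 7 of the 10 members rose, none fell, 2 were not called and 1 was not tested. Across all tested genes 12.6% rose and 7.6% fell, 20.2% in either direction. With JQ1, 4 members fell and 2 rose, where 19.4% of all tested genes fell and 19% rose, 38.5% in either direction. TNFRSF1A, TNFRSF10A and TNFRSF11B were called in opposite directions, higher with FIDAS-5 and lower with JQ1, and TNFRSF12A was called higher with both. The 2 comparisons share the vehicle libraries. TNFRSF11A passed the filter only with its FIDAS-5 libraries, and TNFRSF19 only with its JQ1 libraries. The rise of TNFRSF11A with FIDAS-5 and that of TNFRSF19 with JQ1, both counted here, were thus built into their tests. The summed level of the 10 members was 85.3 ± 2.13 TPM (SD, n = 3) with vehicle, 153 ± 15.1 TPM with FIDAS-5 and 69.5 ± 5.99 TPM with JQ1.

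**Figure D1:**
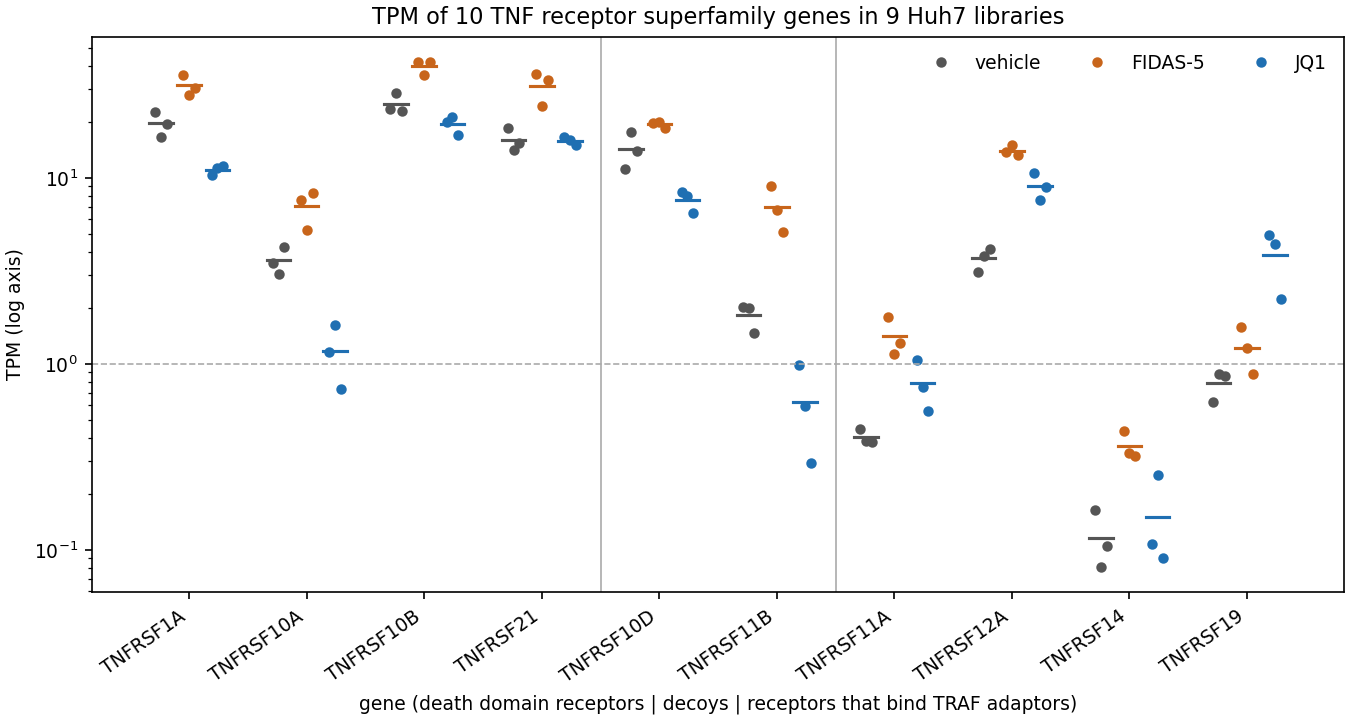
TPM on a log axis for each of the 10 genes in 9 libraries, with 1 point per library and a line at the group mean; the dashed line marks 1 TPM. The FIDAS-5 points lie above all vehicle points for every gene except TNFRSF19, and TNFRSF14 lies under 1 TPM in all libraries.

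In vehicle libraries TNFRSF10B had the highest mean of the members at 24.9 ± 3.10 TPM (SD, n = 3), above 91.5% of the symbols in the table. It was followed by TNFRSF1A at 19.6 ± 3.02 TPM, TNFRSF21 at 16.1 ± 2.32 TPM and TNFRSF10D at 14.3 ± 3.26 TPM. The libraries of TNFRSF1A and TNFRSF21 overlapped, as did those of TNFRSF21 and TNFRSF10D, so their order is within the spread. TNFRSF12A at 3.70 ± 0.524 TPM and TNFRSF10A at 3.60 ± 0.619 TPM also overlapped. TNFRSF11B lay at 1.83 ± 0.321 TPM, TNFRSF19 at 0.789 ± 0.141 TPM, TNFRSF11A at 0.406 ± 0.0378 TPM and TNFRSF14 at 0.117 ± 0.0427 TPM. TNFRSF10B stayed first in all 3 groups. With FIDAS-5 TNFRSF12A remained the fifth, at 14.0 ± 0.871 TPM, with no overlap with TNFRSF10A. With JQ1 TNFRSF19 moved above TNFRSF10A, with 3.86 ± 1.43 TPM against 1.17 ± 0.438 TPM and no overlap.

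Death domain receptors are taken first. TNFRSF1A, the main receptor for TNF, lies on chromosome 12 from 6328771 to 6342076 (GRCh38). It was at 22.6, 16.6 and 19.5 TPM in vehicle replicates 1 to 3, at 35.6, 28.0 and 30.4 TPM with FIDAS-5 and at 10.4, 11.3 and 11.5 TPM with JQ1. The 3 groups did not overlap, with FIDAS-5 highest and JQ1 lowest. The log2 fold change against vehicle was 0.66 with FIDAS-5 (SE 0.15, limma adjusted p = 0.0146) and -0.76 with JQ1 (SE 0.15, adjusted p = 0.00377). The rise with FIDAS-5 was not called without vehicle replicate 3 (adjusted p = 0.0534) or FIDAS-5 replicate 1 (adjusted p = 0.0517).

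TNFRSF10A and TNFRSF10B encode the TRAIL receptors with a full death domain. They lie with TNFRSF10D in one stretch of chromosome 8, TNFRSF10B from 23020133 to 23069031, TNFRSF10D from 23135588 to 23164027 and TNFRSF10A from 23190452 to 23225102, all on the minus strand. TNFRSF10A was at 3.47, 3.06 and 4.27 TPM with vehicle, at 7.63, 5.24 and 8.26 TPM with FIDAS-5 and at 1.16, 1.61 and 0.735 TPM with JQ1. No library of one group reached into another, and the lowest FIDAS-5 library was above the highest vehicle library. Its log2 fold change was 0.79 with FIDAS-5 (SE 0.21, adjusted p = 0.0262) and -1.10 with JQ1 (SE 0.21, adjusted p = 0.00326). The rise with FIDAS-5 was not called with a pseudocount of 0.1 (adjusted p = 0.0555), nor when vehicle replicate 1 or 2 or FIDAS-5 replicate 1 or 3 was dropped (adjusted p = 0.0602 to 0.0985), nor without FIDAS-5 replicate 3 and JQ1 replicate 3 together (adjusted p = 0.0517).

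TNFRSF10B was at 23.5, 28.5 and 22.7 TPM with vehicle, at 41.9, 35.8 and 41.8 TPM with FIDAS-5 and at 19.9, 21.3 and 16.9 TPM with JQ1. The FIDAS-5 libraries were all higher than vehicle and the JQ1 libraries all lower, the latter by a small margin. The gene rose with FIDAS-5 by 0.66 on the log2 scale (SE 0.14, adjusted p = 0.0123), which missed the threshold when vehicle replicate 3 (adjusted p = 0.0578) or FIDAS-5 replicate 3 (adjusted p = 0.0535) was dropped. With JQ1 its log2 fold change was -0.35 (SE 0.14, adjusted p = 0.0873), not called, but called on values rescaled over protein-coding genes (adjusted p = 0.0435) and on values freed of the GC trend (adjusted p = 0.0103 alone, 0.0118 with the replicate block). In GENCODE, opposite-strand genes cover part of the exons, AC100861.1 9.01% and TNFRSF10A-AS1 7.59% of TNFRSF10A and RHOBTB2 1.3% of TNFRSF10B, and the strand setting of the counting is not given in the sources used here. The TRAIL receptor transcripts share few stretches of 31 bases, at most 0.827% of those of TNFRSF10D with its neighbour TNFRSF10C and 0.204% of those of TNFRSF10A with TNFRSF10B.

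TNFRSF21, or death receptor DR6, lies on chromosome 6 from 47231532 to 47309905. It was at 18.6, 14.1 and 15.4 TPM with vehicle, at 36.2, 24.4 and 33.4 TPM with FIDAS-5 and at 16.6, 15.9 and 14.9 TPM with JQ1. The FIDAS-5 libraries stood above all others, while the JQ1 libraries fell inside the vehicle range. Its log2 fold change was 0.91 with FIDAS-5 (SE 0.17, adjusted p = 0.00616) and -0.01 with JQ1 (SE 0.17, adjusted p = 0.963). The sign of the JQ1 value turned without vehicle replicate 1 (0.09) and without JQ1 replicate 3 (0.03).

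The sequence before the annotated start is shown for TNFRSF1A, TNFRSF21 and TNFRSF19, as 3 members with different patterns over the groups. Windows were found and searched for 5 members, and those of TNFRSF11A and TNFRSF14 are not printed. The sequences are from RefSeq (GRCh38.p14), 5′ to 3′ on the gene's strand, and stop before the first base that GENCODE annotates as exon. Windows of 250 bases before a start were searched on both strands for 6 motifs, whose matches are in capitals; matches of different motifs may overlap. The background is the share of 35116 RefSeq windows of the same length that held each motif. It was 9.96% for the kappaB consensus of NF-kappaB. For the AP-1 motif TGANTCA it was 6.57%. For the GC box GGGCGG it was 42.6%. For the E-box CACGTG it was 6.34%. For GCGTG, the core of the AHR site, it was 32.2%. For the TATA box TATAAA it was 10.7%.
TNFRSF1A, chr12:6342115-6342326, minus strand: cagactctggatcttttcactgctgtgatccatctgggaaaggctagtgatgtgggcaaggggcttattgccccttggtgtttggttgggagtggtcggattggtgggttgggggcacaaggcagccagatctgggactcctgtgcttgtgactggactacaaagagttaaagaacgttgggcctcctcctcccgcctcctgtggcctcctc
TNFRSF21, chr6:47309906-47310155, minus strand: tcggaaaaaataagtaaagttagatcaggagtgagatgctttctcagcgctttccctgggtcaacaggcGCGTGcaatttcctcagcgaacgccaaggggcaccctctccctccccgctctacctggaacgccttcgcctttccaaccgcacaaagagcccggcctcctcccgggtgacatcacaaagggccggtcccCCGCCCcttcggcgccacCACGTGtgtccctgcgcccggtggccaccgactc
TNFRSF19, upstream start, chr13:23570162-23570369, plus strand: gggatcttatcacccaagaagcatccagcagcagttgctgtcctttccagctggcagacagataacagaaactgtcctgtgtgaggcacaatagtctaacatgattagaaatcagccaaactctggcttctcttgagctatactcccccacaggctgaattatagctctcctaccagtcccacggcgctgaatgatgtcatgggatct
TNFRSF19, downstream start, chr13:23579110-23579358, plus strand: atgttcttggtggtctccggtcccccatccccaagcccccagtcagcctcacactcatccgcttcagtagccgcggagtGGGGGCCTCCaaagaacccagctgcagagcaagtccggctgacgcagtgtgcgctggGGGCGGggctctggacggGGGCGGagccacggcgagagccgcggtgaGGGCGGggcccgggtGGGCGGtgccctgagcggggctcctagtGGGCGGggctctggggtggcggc
The TNFRSF1A window and the upstream TNFRSF19 window held none of the 6 motifs. The TNFRSF21 window held 1 AHR core at 181 bases, 1 GC box at 52 bases and 1 E-box at 34 bases before the start. The downstream TNFRSF19 window held 5 GC boxes and 1 match to the kappaB consensus. The TNFRSF11A window held 4 GC boxes and the TNFRSF14 window 3 overlapping matches to the kappaB consensus. A match is a run of letters and not a bound site, and the table does not say which TNFRSF19 start was used.

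The decoys were TNFRSF10D, a TRAIL receptor with a truncated death domain, and TNFRSF11B, which encodes osteoprotegerin, a secreted protein that binds RANKL and TRAIL. TNFRSF10D was at 11.2, 17.7 and 14.0 TPM with vehicle, at 19.7, 19.9 and 18.6 TPM with FIDAS-5 and at 8.44, 7.98 and 6.46 TPM with JQ1. The groups did not overlap, but the vehicle libraries were spread widely. With JQ1 it fell by 0.81 on the log2 scale (SE 0.17, adjusted p = 0.00578). With FIDAS-5 the log2 fold change of 0.44 (SE 0.17, adjusted p = 0.111) was not called. It was called without vehicle replicate 2 (adjusted p = 0.0380), with protein-coding genes rescaled (adjusted p = 0.0348) and when the GC trend was taken out (adjusted p = 0.0190 alone, 0.0108 with the replicate block).

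TNFRSF11B lies on chromosome 8 from 118923557 to 118951885, far from the TRAIL receptor genes. It was at 2.03, 2.0 and 1.46 TPM with vehicle, at 9.07, 6.68 and 5.10 TPM with FIDAS-5 and at 0.989, 0.596 and 0.293 TPM with JQ1. It had the widest span of the tested members, 2.28 on the log2 scale between the highest and the lowest group mean, and no groups overlapped. The mean was 3.80 times that of vehicle with FIDAS-5 (1.47 on the log2 scale, SE 0.22, adjusted p = 0.00218) and 0.342 times with JQ1 (-0.81, SE 0.22, adjusted p = 0.0179). The fall with JQ1 missed the threshold when vehicle replicate 1 or 2, or the second JQ1 library, was left out (adjusted p = 0.0512 to 0.0562). On the log2 scale the fall was -1.52 with a pseudocount of 0.1 and -1.28 with protein-coding genes rescaled.

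For TRAIL a partial balance of receptors can be given per library as the ratio of TNFRSF10D to the sum of TNFRSF10A and TNFRSF10B. It leaves out the decoy TNFRSF11B, which rose with FIDAS-5 and fell with JQ1, and TNFRSF10C, which did not reach the filter. This ratio was 0.415, 0.562 and 0.519 with vehicle, 0.398, 0.484 and 0.372 with FIDAS-5 and 0.401, 0.348 and 0.366 with JQ1. The JQ1 libraries lay below the vehicle libraries and the FIDAS-5 libraries overlapped them. The death receptor sum itself was 28.5 ± 2.60 TPM (SD, n = 3) with vehicle, 46.9 ± 5.06 TPM with FIDAS-5 and 20.6 ± 2.67 TPM with JQ1. TNFSF10, the ligand, was at 3.05, 3.19 and 3.72 TPM with vehicle, at 6.38, 4.19 and 3.75 TPM with FIDAS-5 and at 2.46, 2.17 and 1.69 TPM with JQ1. Neither compound's difference from vehicle was called for the ligand.

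**Figure D2:**
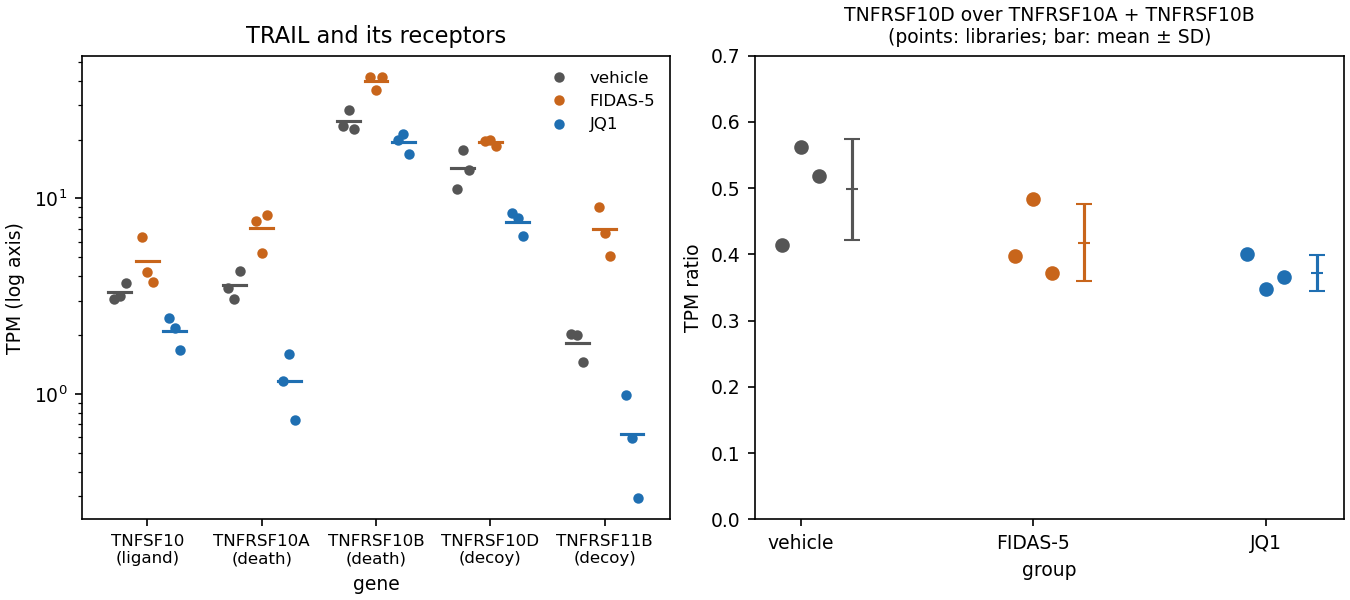
Left, TPM on a log axis of TNFSF10 and the members that bind its product, with 1 point per library and a line at each group mean. Right, the ratio of TNFRSF10D to TNFRSF10A plus TNFRSF10B by library with mean ± SD; vehicle libraries span 0.415 to 0.562 and JQ1 libraries 0.348 to 0.401.

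Among the receptors that bind TRAF adaptors, TNFRSF12A, which encodes Fn14, the receptor for TWEAK, lies on chromosome 16 from 3020368 to 3022383, with 2.16% of its exonic bases under CLDN6 of the opposite strand. It was at 3.12, 3.81 and 4.15 TPM with vehicle, at 13.8, 14.9 and 13.2 TPM with FIDAS-5 and at 10.5, 7.59 and 8.96 TPM with JQ1. Both treated groups lay above vehicle, and FIDAS-5 lay above JQ1, with no overlap. The mean was 3.78 times that of vehicle with FIDAS-5 and 2.44 times with JQ1. The log2 fold changes were 1.68 (SE 0.15, adjusted p = 1.39e-04) and 1.09 (SE 0.15, adjusted p = 6.26e-04), and both calls held in each of the 21 alternative settings run. TNFSF12, which encodes TWEAK, did not reach the filter, at 0.178, 0.132 and 0.178 TPM with vehicle, 0.514, 0.703 and 0.276 TPM with FIDAS-5 and 0.0839, 0 and 0 TPM with JQ1.

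TNFRSF19, which encodes TROY, a receptor best known from the nervous system and from stem cells, lies on chromosome 13 from 23570412 to 23676093. It was at 0.627, 0.880 and 0.860 TPM with vehicle, at 1.58, 1.22 and 0.879 TPM with FIDAS-5 and at 4.94, 4.40 and 2.23 TPM with JQ1. The JQ1 libraries stood above all others, and FIDAS-5 overlapped vehicle. With JQ1 its mean was 4.89 times that of vehicle (log2 fold change 1.40, SE 0.23, adjusted p = 0.00171). The log2 fold change with FIDAS-5 was 0.31 (SE 0.23, adjusted p = 0.394), called only in the settings that removed the GC trend (adjusted p = 0.00813 without and 0.0110 with the replicate block). No vehicle library and only 2 FIDAS-5 libraries reached 1 TPM, so the gene passed the filter only with its JQ1 libraries. A rise with JQ1 was thus built into its tests against vehicle and against FIDAS-5.

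TNFRSF11A, which encodes RANK, the receptor for RANKL, lies on chromosome 18 from 62325310 to 62391288. It was at 0.449, 0.385 and 0.383 TPM with vehicle, at 1.80, 1.13 and 1.29 TPM with FIDAS-5 and at 1.05, 0.748 and 0.561 TPM with JQ1. Both treated groups lay above vehicle, and JQ1 lay below FIDAS-5. It too had no vehicle library at 1 TPM, and it passed the filter only with its FIDAS-5 libraries. A difference from vehicle was thus built into the filter. The log2 fold change was 0.77 with FIDAS-5 (SE 0.15, adjusted p = 0.00743) and 0.34 with JQ1 (SE 0.15, adjusted p = 0.106). The FIDAS-5 value was 1.55 with a pseudocount of 0.1 and 1.29 with protein-coding genes rescaled. The JQ1 difference was called with a pseudocount of 0.1, with median-of-ratios scaling, with quantile normalization, on values rescaled over protein-coding genes and when the GC trend was taken out, with or without the block (adjusted p = 0.00625 to 0.0418). TNFRSF14, which encodes HVEM, a receptor for LIGHT, lies on chromosome 1 from 2554234 to 2563829. It was at 0.164, 0.0810 and 0.105 TPM with vehicle, at 0.436, 0.333 and 0.319 TPM with FIDAS-5 and at 0.108, 0.252 and 0.0901 TPM with JQ1. The FIDAS-5 libraries were the highest, but all 9 values are under 1 TPM, the gene was not tested, and 13.4% of its exonic bases overlap its antisense gene TNFRSF14-AS1.

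**Figure D3:**
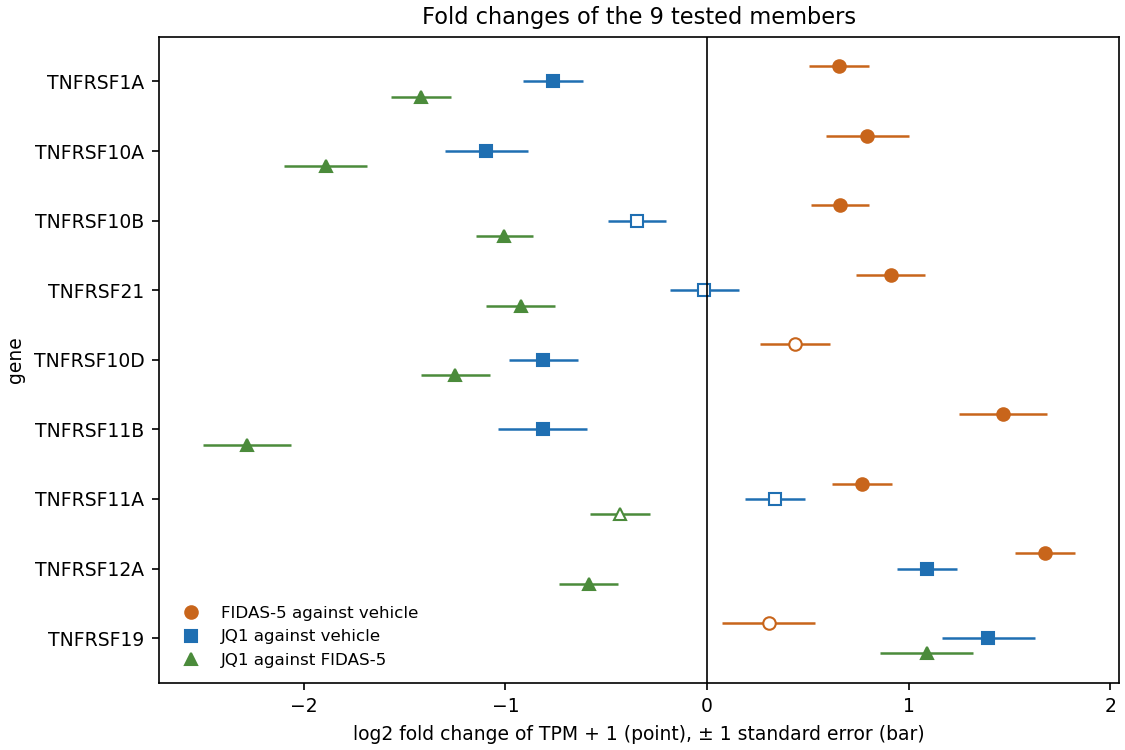
Log2 fold changes (points) with 1 standard error (bars) for the 9 tested members in 3 comparisons; filled symbols were called at an adjusted p under 0.05 and open symbols were not. TNFRSF12A and TNFRSF19 lie to the right for JQ1 against vehicle, and TNFRSF1A, TNFRSF10A, TNFRSF10D and TNFRSF11B to the left.

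Set directly against each other, 7 of 9 tested members were called lower with JQ1 than with FIDAS-5 and TNFRSF19 was called higher, where 18.5% of all tested genes were lower and 16.4% higher, 34.8% in either direction. The compounds are not analogs and their doses differ, so the values are side by side and not matched. TNFRSF11B differed most, at -2.28 on the log2 scale (SE 0.22, adjusted p = 8.35e-05), followed by TNFRSF10A at -1.89 (SE 0.21, adjusted p = 1.67e-04) and TNFRSF1A at -1.42 (SE 0.15, adjusted p = 1.31e-04). TNFRSF10D was at -1.25, TNFRSF10B at -1.01 and TNFRSF21 at -0.92. TNFRSF19 was higher with JQ1 by 1.09 (SE 0.23, adjusted p = 0.00636). It passed the filter only with its JQ1 libraries, so this direction was built into its test. TNFRSF12A was lower by 0.59 on the log2 scale (log2 fold change -0.59, adjusted p = 0.0144), a call lost without FIDAS-5 replicate 2 (adjusted p = 0.0514) or JQ1 replicate 2 (adjusted p = 0.0631). TNFRSF11A was at -0.43 (adjusted p = 0.0523), and with the replicate block the same difference was called (adjusted p = 0.0384). It was called in 10 of 20 alternative settings, with adjusted p from 0.00288 with the GC trend taken out to 0.0477 with no filter, among them the setting without JQ1 replicate 1 (adjusted p = 0.0404). In the other 10 settings adjusted p reached 0.156.

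By libraries that do not overlap, all 3 FIDAS-5 values lay above all 3 vehicle values for 9 of the 10 members, as they did for 20.9% of all tested genes. All JQ1 values lay below vehicle for 5 members and above for 3, against 26.2% and 24.5% of all tested genes. JQ1 lay wholly below FIDAS-5 for 9 members and wholly above for 1, against 25% and 22.7%. These counts include TNFRSF14, and the choice of members makes them a description only.

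The rest of the superfamily was mostly near 0. Of 19 other receptor genes with values only LTBR and RELT were tested. LTBR, the lymphotoxin beta receptor, has no death domain and activates the non-canonical NF-kappaB pathway. It was at 7.26, 4.51 and 5.63 TPM with vehicle, at 14.6, 13.7 and 14.6 TPM with FIDAS-5 and at 3.88, 3.79 and 3.62 TPM with JQ1. It rose with FIDAS-5 by 1.19 on the log2 scale (SE 0.15, adjusted p = 0.00102) and fell with JQ1 by 0.49 (SE 0.15, adjusted p = 0.0315). The fall was not called with only the 6 libraries compared (adjusted p = 0.0697), nor when vehicle replicate 1 or 3 or any 1 JQ1 library was dropped (adjusted p = 0.0635 to 0.0812). RELT had a log2 fold change of 0.42 with FIDAS-5 (adjusted p = 0.0620). FAS, the receptor for FAS ligand, was at or under 0.0551 TPM in every library, and CD40, TNFRSF13B and TNFRSF18 were listed at 0 in all 9.

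Of 18 ligand genes 4 were tested, and 14 were too low. TNF itself was listed at 0 in all 9 libraries. TNFSF9, the ligand of TNFRSF9, was at 2.14, 1.85 and 1.91 TPM with vehicle, at 5.95, 5.01 and 6.03 TPM with FIDAS-5 and at 2.19, 2.06 and 1.95 TPM with JQ1. It was the only ligand that rose with FIDAS-5 (by 1.16 on the log2 scale, SE 0.12, adjusted p = 2.80e-04). With JQ1 TNFSF4 fell by 0.66 on the log2 scale (adjusted p = 0.0252), which missed the threshold when any 1 vehicle library or JQ1 replicate 3 was dropped (adjusted p = 0.0508 to 0.0692).

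**Figure D4:**
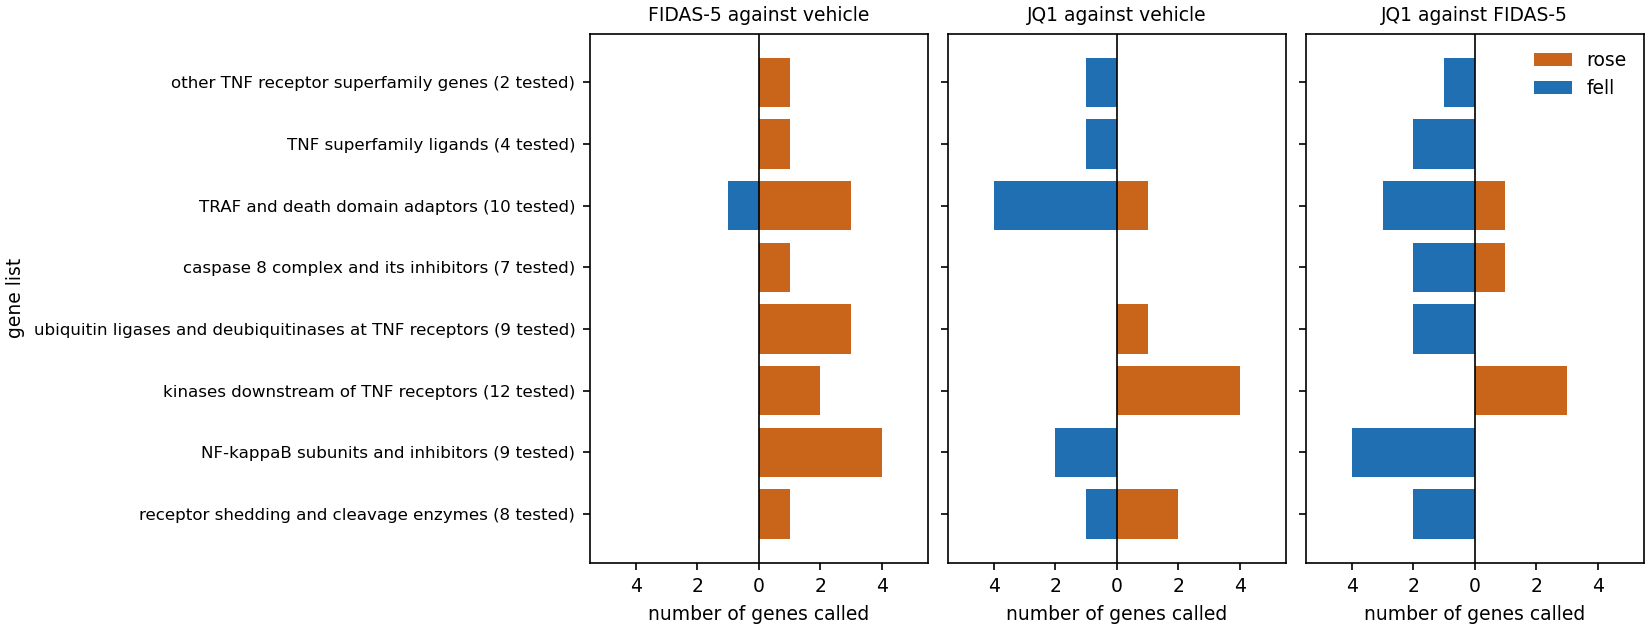
Number of genes called higher (right of 0) or lower (left of 0) in 8 lists of the pathway, in 3 comparisons, with the number tested beside each list name. With FIDAS-5 1 gene fell, an adaptor, and with JQ1 the adaptor list has 4 genes lower and 1 higher. Of all tested genes 20.2% were called in either direction with FIDAS-5, 38.5% with JQ1 and 34.8% between the compounds.

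The list counts below stand beside all tested genes, of which 12.6% rose and 7.6% fell with FIDAS-5. With JQ1 19% of all tested genes rose and 19.4% fell. A count near these shares is not a result about its list. Adaptors moved in both directions. With FIDAS-5, 3 of 10 tested adaptors rose and 1 fell (median 0.30, against -0.02 over all tested genes), and with JQ1 1 rose and 4 fell (median 0.11, against -0.01). TRADD, the adaptor that TNFRSF1A binds first, went from a mean of 0.551 TPM with vehicle to 1.90 TPM with FIDAS-5 (log2 fold change 0.91, adjusted p = 0.00137) and 2.67 TPM with JQ1 (1.25, adjusted p = 1.25e-04). No vehicle library of TRADD reached 1 TPM, so it was tested through its treated libraries. FADD, the adaptor that recruits caspase 8, fell with JQ1 by 0.60 (adjusted p = 0.0119) and had a log2 fold change of 0.26 with FIDAS-5 (adjusted p = 0.259). TRAF3IP2, an adaptor of interleukin 17 receptors, fell with JQ1 by 1.08 (adjusted p = 5.53e-04). EDARADD, the adaptor of EDAR, fell with both compounds, by 0.94 with FIDAS-5 and 0.76 with JQ1 (adjusted p = 0.00172 and 0.00254). The rise of TRAF4 with FIDAS-5 (0.49, adjusted p = 0.0263) missed the threshold when vehicle replicate 2 or 3 or FIDAS-5 replicate 1 or 3 was dropped (adjusted p = 0.0620 to 0.0959). That of TRAF3IP2 (0.47, adjusted p = 0.0493) missed it when any 1 vehicle or FIDAS-5 library or JQ1 replicate 2 was dropped (adjusted p = 0.0577 to 0.146), and with a pseudocount of 0.1 (adjusted p = 0.0834), a moderation trend (0.0533) or only the 6 libraries compared (0.0592). The fall of TRAF2 with JQ1 (-0.41, adjusted p = 0.0384) missed it when any 1 vehicle or JQ1 library or FIDAS-5 replicate 3 was dropped (adjusted p = 0.0598 to 0.0887).

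Of 7 tested genes of the caspase 8 complex and its inhibitors, CASP8 rose with FIDAS-5 and none was called with JQ1 (medians 0.03 and -0.22). The rise of CASP8, the initiator caspase of death receptors, was 0.59 (adjusted p = 0.0287), and it was lost when vehicle replicate 1 or 3, FIDAS-5 replicate 1 or 2, or JQ1 replicate 2 was dropped (adjusted p = 0.0514 to 0.0915). CFLAR, which encodes its inhibitor FLIP, had log2 fold change -0.05 with FIDAS-5 (adjusted p = 0.846). Of 9 ubiquitin ligases and deubiquitinases 3 rose with FIDAS-5 and 1 with JQ1 (medians 0.35 and 0.25). RBCK1, a subunit of the complex that makes linear ubiquitin chains, rose with FIDAS-5 by 0.85 (adjusted p = 0.00570), and SHARPIN, another subunit, rose with JQ1 by 0.67 (adjusted p = 0.00747). SHARPIN also rose with FIDAS-5 (0.58, adjusted p = 0.0248), a call that needed all 3 FIDAS-5 libraries (adjusted p = 0.0568 to 0.0866 with 1 of them dropped, and 0.0522 with only the 6 libraries compared). TNIP1, which binds the deubiquitinase TNFAIP3, rose with FIDAS-5 (0.41, adjusted p = 0.0402) and missed the threshold when vehicle replicate 2 or 3, FIDAS-5 replicate 1 or 3 or JQ1 replicate 1 or 2 was dropped (adjusted p = 0.0628 to 0.157). It also missed it with the replicate block (adjusted p = 0.0653), with median-of-ratios scaling (0.0814), with quantile normalization (0.126) and with only the 6 libraries compared (0.0820).

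NF-kappaB subunits and inhibitors gave 4 genes higher and none lower of 9 with FIDAS-5 (median 0.47) and 2 lower with JQ1 (median -0.29). NFKB2 and RELB, the subunits of the non-canonical pathway that LTBR, TNFRSF11A and TNFRSF12A can activate, rose with FIDAS-5 by 1.59 and 1.02 (adjusted p = 6.58e-04 and 0.00443). RELB was at 1.32, 0.597 and 1.18 TPM with vehicle and under 1 TPM with JQ1, so it passed the filter only with its FIDAS-5 libraries. A rise of RELB with FIDAS-5 was thus built into its test. The inhibitors NFKBIB (0.56, adjusted p = 0.0170) and NFKBIE (0.42, adjusted p = 0.0376) rose too. NFKBIB missed the threshold when FIDAS-5 replicate 3 was dropped (adjusted p = 0.0761), with quantile normalization (0.0603) and with the GC trend taken out (0.254). NFKBIE missed it when vehicle replicate 2 or 3, any 1 FIDAS-5 library or JQ1 replicate 1 or 2 was dropped (adjusted p = 0.0511 to 0.131). It also missed it with the replicate block (adjusted p = 0.0654), with median-of-ratios scaling (0.0594), with only the 6 libraries compared (0.0690) and with the GC trend taken out (0.252). RELB was at a mean of 1.03 TPM with vehicle and 0.353 TPM with JQ1 (log2 fold change -0.57, adjusted p = 0.0324), a fall that missed the threshold when vehicle replicate 1 or 3 or JQ1 replicate 2 or 3 was dropped (adjusted p = 0.0585 to 0.108), with quantile normalization (0.0747) and with only the 6 libraries compared (0.0510). The fall of NFKBIB with JQ1 (-0.49, adjusted p = 0.0169) missed it when vehicle replicate 3 or JQ1 replicate 1 or 2 was dropped (adjusted p = 0.0521 to 0.0718), with median-of-ratios scaling (0.0548) and with quantile normalization (0.0506). NFKB1 and RELA, subunits of the canonical pathway, were not called with FIDAS-5 (0.04 and 0.47, adjusted p = 0.889 and 0.133).

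Of 12 tested kinases 2 rose with FIDAS-5 and 4 with JQ1, with none lower (medians -0.11 and 0.43). Across all tested genes 12.6% rose with FIDAS-5 and 19% with JQ1. With JQ1 the rises of IKBKG, the regulatory subunit of the IKK complex, by 0.67, MAP2K7, a kinase of the JNK pathway, by 0.60 and MAP3K14, the kinase of the non-canonical pathway, by 0.51 were called in every alternative setting run (highest adjusted p = 0.0326, 0.0356 and 0.0379). MAP3K14 was at 0.464 to 0.481 TPM with vehicle and passed the filter only through 1 FIDAS-5 and 2 JQ1 libraries, so a difference from vehicle was built into its test with either compound. TAB1, an activator of the kinase TAK1, also rose with JQ1 (0.49, adjusted p = 0.0257), but not past the threshold when vehicle replicate 2 or 3 or JQ1 replicate 2 or 3 was dropped (adjusted p = 0.0580 to 0.0882) or with quantile normalization (0.0671). The 2 kinase genes that rose with FIDAS-5 were IKBKG (0.45, adjusted p = 0.0368) and MAP3K14 (0.38, adjusted p = 0.0493). IKBKG missed the threshold when any 1 vehicle library, FIDAS-5 replicate 1 or 3 or JQ1 replicate 1 or 2 was dropped (adjusted p = 0.0563 to 0.113), and MAP3K14 when any 1 of the 9 libraries was dropped (adjusted p = 0.0507 to 0.139), with the replicate block (adjusted p = 0.0809), with median-of-ratios scaling (0.0548) and with only the 6 libraries compared (0.0893). IKBKG also missed it with only those 6 (0.0706).

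Of 8 genes of receptor shedding and cleavage 1 rose with FIDAS-5, and 2 rose and 1 fell with JQ1 (medians 0.13 and 0.32). RHBDF1, a cofactor of the sheddase ADAM17, rose with FIDAS-5 by 0.87 and with JQ1 by 1.30 (adjusted p = 0.00594 and 3.85e-04). NCSTN, a subunit of gamma-secretase, rose with JQ1 (0.54, adjusted p = 0.0218) and RHBDF2, a relative of RHBDF1, fell (-0.69, adjusted p = 0.0206). NCSTN missed the threshold when vehicle replicate 2 or 3 or JQ1 replicate 1 or 2 was dropped (adjusted p = 0.0521 to 0.0798), and RHBDF2 when vehicle replicate 3 or JQ1 replicate 2 was dropped (adjusted p = 0.0605 and 0.0674). ADAM17 itself, which sheds TNFRSF1A from the cell surface, had a log2 fold change of -0.35 with FIDAS-5 (adjusted p = 0.298).

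Taking out the GC trend moved several of these genes by over 1.5 times. With FIDAS-5 the rise of IKBKG went to 0.18 on the log2 scale (adjusted p = 0.311, 0.329 with the replicate block), that of MAP3K14 to 0.16 (0.257, 0.256), that of NFKBIB to 0.25 (0.254, 0.184) and that of NFKBIE to 0.16 (0.252, 0.230). TRAF4 went to 0.25 (adjusted p = 0.0818, 0.0781 with the block), TNIP1 to 0.22 (0.103, 0.117) and SHARPIN to 0.26 (0.0375, 0.0507). RBCK1, RHBDF1 and TRADD stayed called at 0.54, 0.56 and 0.59. With JQ1 the rises of IKBKG, MAP2K7, MAP3K14, SHARPIN and TAB1 stayed called at 0.40, 0.30, 0.31, 0.35 and 0.26, and the falls of NFKBIB, RELB and TRAF2 were larger, at -0.79, -0.90 and -0.66.

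Between the compounds, NFKB2 was lower with JQ1 than with FIDAS-5 by a log2 fold change of -2.06, LTBR by -1.68, RELB by -1.59, TNFSF9 by -1.12, TNFSF10 by -0.88, FADD by -0.86 and CASP8 by -0.81, and each of these calls held in every alternative setting run. RELB passed the filter only with its FIDAS-5 libraries, so its direction was built into its test. Of 9 NF-kappaB genes 4 were lower and none higher, and of 12 kinases 3 were higher and none lower. Across all tested genes 18.5% were lower and 16.4% higher.

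Over the 9 libraries, the genes most like TNFRSF11B among those with a mean of at least 5 TPM were FAM89A, GABARAPL1 and MUC13 (Pearson r of log2(TPM + 1) 0.987, 0.986 and 0.986). MUC13, an epithelial mucin, was at 2.60, 1.75 and 1.89 TPM with vehicle, at 26.0, 20.2 and 15.4 TPM with FIDAS-5 and at 0.284, 0.251 and 0.0969 TPM with JQ1. Those most like TNFRSF10A were ST7, PLPP5 and LRRC27 (0.984, 0.981 and 0.980), and those most like TNFRSF12A were SLC47A1, EGFL7 and PTGDR2 (0.975, 0.970 and 0.963). The 9 points are 3 groups, so these values mainly restate the order of the group means, and they are given as a description without a test.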

How the data were processed

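Total RNA from Huh7 cells was purified with a column kit and sequenced from libraries that an outside company made, per the labels. The authors deposited gene-level TPM; Salmon and the build hg38 are named in the submitters' processing notes, and the Salmon version, annotation and strand setting are not given in the sources used here. Each library summed to 1000000 TPM to within 1.22. Depth is unknown. From these values log2(TPM + 1) was computed, the 13573 genes that reached 1 TPM in 3 or more of 9 libraries were kept, and limma 3.58.1 (R 4.3.3) fitted 3 group means to all 9 libraries (6 residual and 2.86 prior degrees of freedom). Tests were two-sided with Benjamini-Hochberg adjustment over all tested genes, at 0.05. The members, gene lists, tests and alternatives were chosen with earlier results of these data known.

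All 10 members were named. From each list the called genes with the smallest adjusted p were named, up to 4 per comparison, and others where a list needed them; for the 3 members with the widest span of group means, the 3 most correlated genes were named. Low genes in the closing section were chosen after their values were seen. Gene coordinates and promoter sequences came from RefSeq (GRCh38.p14), and 5 of 10 members had a promoter window that was used. Transcript GC content and exon overlaps came from GENCODE. The fit was checked on simulated data.

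Same-numbered FIDAS-5 and JQ1 libraries deviated together across genes (correlations 0.26, 0.102 and 0.422 for replicates 1 to 3), each over the 0.1 set for pairing, though FIDAS-5 replicate 1 and JQ1 replicate 2 reached 0.179. The values given are without the replicate block unless the block is named. The labels give only the number. Vehicle libraries and same-numbered treated libraries had correlations of -0.0765 to 0.16. Among these only replicate 2 of vehicle and FIDAS-5, at 0.16, was over 0.1. Alternatives were another pseudocount, other filters and scalings, the replicate block, a moderation trend, GC trend removal and leaving out each library; dropping the replicates numbered 3 of both treatments at once was chosen after seeing the data. Python 3.11.15 and matplotlib 3.10.9 made the figures.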

Additional observations from a re-analysis of the deposited data

How the results depend on the processing

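The number of members called stayed within 1.5 times of its value in every setting run. With FIDAS-5 against vehicle it was 7, and 5 to 7 with each library left out in turn; with JQ1 against vehicle it was 6, and 5 to 6; with JQ1 against FIDAS-5 it was 8, and 7 to 9. With the replicate block the counts were 7, 6 and 9, and the pairing changed no call of a member other than that of TNFRSF11A. Without replicate 3 of both treatments, a setting chosen after seeing the data, the counts were 6, 6 and 8. The counts were 9, 8 and 9 with the GC trend removed, and 8, 8 and 9 with protein-coding genes rescaled. Of 561 recomputed fold changes of members 518 kept their direction and side of the threshold, 25 became called, 15 were no longer called and 3 changed sign. The 3 were all TNFRSF21 with JQ1 against vehicle, which ranged from -0.0955 to 0.0933 with each library left out in turn, and the cause was not tested: 0.0933 without vehicle replicate 1, 0.0256 without JQ1 replicate 3 and 0.0256 without both replicates 3. No scaling moved the median of all genes by over 0.1.

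Over all genes, 2742 were called with FIDAS-5 (1711 higher, 1031 lower), 4362 with the GC trend removed, 4705 with that and the replicate block, and 1639 and 1640 without vehicle replicate 3 and FIDAS-5 replicate 3. Quantile normalization split the calls into 1904 higher and 1756 lower. Between the compounds 4726 of 13573 tested genes were called, and 2991 of the 8619 that passed the stricter filter of 5 TPM. TPM keeps no depth, so no limit of detection can be set for TNFRSF14, TNFRSF11A or the low ligands.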

Other observations

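Some genes of the superfamily that did not reach the filter still had libraries that did not overlap between groups; they were chosen after their values were seen and were not tested. Among tested genes JQ1 libraries lay wholly below vehicle for 26.2% and wholly above for 24.5%. No such share was computed for genes under the filter. TNFRSF25, a death domain receptor, was at 0.519, 0.324 and 0.381 TPM with vehicle and at 0.209, 0.0843 and 0.0850 TPM with JQ1. TNFRSF9, the receptor for the product of TNFSF9, was at 0.694, 0.394 and 0.655 TPM with vehicle and at 0.862, 0.807 and 0.828 TPM with JQ1. TNFRSF17 was at 0.131, 0.0387 and 0.157 TPM with vehicle and at 0.431, 0.223 and 0.675 TPM with JQ1. NGFR was at 0, 0 and 0.0134 TPM with vehicle and at 0.0948, 0.152 and 0.0693 TPM with JQ1. TNFRSF10C, the fourth membrane receptor for TRAIL, was at 0.286, 0.170 and 0.490 TPM with vehicle, and its FIDAS-5 libraries fell inside that range while its JQ1 libraries, at 0.116 to 0.697 TPM, spread beyond it.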
